A study of Homo sapiens with 24 samples.

Results

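The 74 genes described here were the heat shock protein and DNAJ chaperones of the deposited table, chosen by symbol among 25161 symbols in 25575 rows. The symbols taken were HSPA and HSPB with a number, HSP90AA1, HSP90AB1, HSP90B1, HSPH1, HSPD1, HSPE1, HSPA4L, and DNAJA, DNAJB or DNAJC with a number. The rule itself used symbols and no measured value, though it was set with earlier results of these data known, and every member had 1 row. They comprised 13 HSP70 genes, 3 genes of the HSP110 class, 3 HSP90 genes, the 2 subunits of the mitochondrial chaperonin, 8 HSPB genes and 4, 13 and 28 genes of the DNAJA, DNAJB and DNAJC classes. Hybridisation to Clariom D human arrays, 24 in all, covered the diffuse large B-cell lymphoma line SU-DHL-4 and the Burkitt lymphoma line DG-75. Cells were exposed for 72 h to DMSO, to 1 µM Entospletinib (Ento), an inhibitor of the kinase SYK, to 0.01 µM AZD5153 (AZD), a bivalent inhibitor of the BET bromodomain proteins, or to both agents (Ento+AZD), with 3 arrays in each of the 8 groups. Each line is 1 established culture without added genetic changes, and the design text calls the arrays of a group biological triplicates. Values are given on the log2 scale of the deposited table, and "passed" means an adjusted p under 0.05 over all 25575 rows in limma, whereas "called" adds a change of more than 2-fold.

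Chaperones bind unfolded stretches of other proteins and keep them from clumping. HSP70 proteins hold and release clients in an ATP cycle that DNAJ proteins start and exchange factors of the HSP110 class complete, HSP90 proteins finish the folding of kinases and receptors, the chaperonin encloses proteins inside mitochondria, and small heat shock proteins hold clients without ATP. Heat shock factor switches on many of these genes through heat shock elements in their promoters, and the unfolded protein response of the endoplasmic reticulum (ER) does so for the chaperones of that compartment.

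The promoters shown first carry the sequences through which these genes are known to be switched on, and they belong to members on which the results turn. HSPB1 fell under Ento+AZD in SU-DHL-4 and HSPD1 over both lines, HSPA1A and HSPA6 stood high in one numbered set of DG-75 arrays, and HSPA5 stands for the ER chaperones. Each line holds the 250 bases before an annotated start of the gene, 5′ to 3′ on the strand of the gene, taken from RefSeq windows on GRCh38.p14, at chr7:76302423-76302672 on the plus strand for HSPB1, chr2:197499841-197500090 on the minus strand for HSPD1, chr6:31815293-31815542 on the plus strand for HSPA1A, chr1:161524290-161524539 on the plus strand for HSPA6 and chr9:125241344-125241593 on the minus strand for HSPA5. The build of the array annotation is not given in the sources used here, so the windows describe the genes and not the probes. Capitals mark cores of the heat shock element, GAANNTTC or TTCNNGAA, which read the same on both strands and can overlap, and in HSPA5 the ER stress element.
HSPB1: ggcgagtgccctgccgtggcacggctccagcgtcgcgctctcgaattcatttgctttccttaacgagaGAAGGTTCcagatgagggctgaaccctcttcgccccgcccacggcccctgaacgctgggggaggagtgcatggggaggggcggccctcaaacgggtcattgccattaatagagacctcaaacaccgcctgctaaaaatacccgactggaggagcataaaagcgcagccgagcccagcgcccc
HSPD1: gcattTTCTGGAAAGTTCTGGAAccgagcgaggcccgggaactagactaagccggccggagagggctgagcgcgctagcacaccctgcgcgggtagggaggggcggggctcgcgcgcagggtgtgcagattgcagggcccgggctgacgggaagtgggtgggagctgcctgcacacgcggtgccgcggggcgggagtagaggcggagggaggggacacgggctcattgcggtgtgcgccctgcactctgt
HSPA1A: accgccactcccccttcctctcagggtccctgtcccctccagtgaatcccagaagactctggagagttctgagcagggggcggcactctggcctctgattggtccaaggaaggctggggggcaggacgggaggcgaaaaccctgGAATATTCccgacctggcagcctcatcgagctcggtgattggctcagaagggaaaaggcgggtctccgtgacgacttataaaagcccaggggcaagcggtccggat
HSPA6: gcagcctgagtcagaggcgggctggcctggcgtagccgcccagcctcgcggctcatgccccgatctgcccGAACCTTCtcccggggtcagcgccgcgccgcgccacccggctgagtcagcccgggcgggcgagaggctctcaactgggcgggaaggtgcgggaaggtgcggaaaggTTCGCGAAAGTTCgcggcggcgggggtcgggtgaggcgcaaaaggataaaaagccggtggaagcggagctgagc
HSPA5: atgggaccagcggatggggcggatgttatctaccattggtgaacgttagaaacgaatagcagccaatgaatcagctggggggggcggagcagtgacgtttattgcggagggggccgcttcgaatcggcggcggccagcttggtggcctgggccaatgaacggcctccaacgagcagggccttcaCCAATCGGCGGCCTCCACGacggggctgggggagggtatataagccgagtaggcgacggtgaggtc

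HSPB1 and HSPA1A each showed 1 core in these bases, while HSPD1 and HSPA6 showed 3. HSPD1 had 2 annotated starts, and the window of the start not shown held 0 cores. RefSeq windows of 300 bases, with 250 before and 50 after a start, were found for 64 of the 74 members, 83 windows in all. A core lay in 23 of them (27.7%), compared with 13.5% of 35116 windows of all genes. A run of 3 alternating units lay in 7 windows (8.43%), compared with 0.49% of all. The ER stress element lay in 2 windows (2.41%), those of HSPA5 and HSP90B1, compared with 0.0769% of all windows. No window was held for DNAJB3, DNAJC1, DNAJC22, DNAJC24, DNAJC5B, HSPA12B, HSPA14, HSPA7, HSPB11 and HSPB2. These matches describe letters in the windows, and binding was not measured.

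The markers of both lines fitted B cells. CD79A, the signalling chain of the B-cell receptor, lay between 11.9 and 12.4 in SU-DHL-4 and between 11.2 and 11.9 in DG-75, and the T-cell markers CD2, CD3D, CD3E and CD3G stayed at 4.72 or lower on every array. DCN, listed as a fibroblast marker, lay between 8.49 and 9.90 in SU-DHL-4 and between 4.31 and 5.41 in DG-75, while the other fibroblast markers did not part the lines in this way, with COL1A1 between 5.49 and 6.17, COL1A2 between 6.82 and 7.50 and COL3A1 between 5.16 and 6.25 over both. Arrays of 1 group correlated at 0.981 to 0.992 over all rows, and array medians lay between 4.89 and 5.14. HSPA1A and HSPA1B encode nearly the same protein, so that probes of one may read the other, which was not tested. Their rows correlated at 0.95 over the 24 arrays, which cannot tell such cross-reading from shared changes. HSPA6 and its transcribed pseudogene HSPA7, HSPE1 with the readthrough gene HSPE1-MOB4, and DNAJC25 with DNAJC25-GNG10 are uncertain in the same way.

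Under Ento+AZD in SU-DHL-4, HSPB1 was the member called. HSPB1 is the small heat shock protein HSP27, which holds unfolded proteins and stabilises actin. Its values in SU-DHL-4 were 8.05, 7.51 and 7.995 under DMSO, 7.65, 7.02 and 6.97 under Ento, 7.24, 6.81 and 6.87 under AZD and 6.25, 6.49 and 5.99 under Ento+AZD. The 3 Ento+AZD arrays lay below all the other SU-DHL-4 arrays, the AZD arrays lay between them and DMSO, and the Ento arrays overlapped with DMSO. HSPB1 fell by 1.61 ± 0.193 (SE, n = 3 against 3) on the log2 scale, which was 3.05-fold lower than in the DMSO control (limma, adjusted p = 0.00434). By p it was in place 11 among all rows. Leaving out each of the 6 arrays in turn kept it below the threshold, with adjusted p between 0.00654 and 0.0295. In a bulk culture, fewer cells with the transcript and less of it per cell cannot be told apart. DNAJC1, a J protein of the ER membrane, was at 4.29, 4.37 and 4.81 under DMSO and at 3.62, 3.17 and 3.87 under Ento+AZD. Its groups did not overlap, as for 16% of all rows, which also lay below DMSO on every array. It fell by 0.94 ± 0.222 (limma, adjusted p = 0.0473), just short of 2-fold. Without any one of the 6 arrays DNAJC1 missed the threshold, with adjusted p from 0.0792 to 0.238, and under 5 of 8 other settings. Whether its low values in SU-DHL-4 stood above background is not known. The 1 member called of 74 stood beside 1.19% of all rows called in this comparison, and the 2 members passed beside 2.36%. The median change of the members was -0.06 and that of all rows -0.08.

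Under Ento+AZD in DG-75, DNAJC22 was called lower and DNAJC16 passed as higher. DNAJC22 is a membrane-spanning J protein whose fly counterpart acts in endocytosis, and DNAJC16 is a J protein of the ER membrane. DNAJC22 was at 6.59, 5.67 and 5.61 under DMSO, at 6.09, 5.83 and 4.80 under Ento, at 5.47, 5.90 and 4.75 under AZD and at 4.82, 4.84 and 4.58 under Ento+AZD. The Ento+AZD arrays lay below the DMSO arrays, as in 14% of all rows, and the single agents overlapped with DMSO. DNAJC22 fell by 1.21 ± 0.249, 2.31-fold (limma, adjusted p = 0.0348). The call was lost without the Ento+AZD array 1 or 2 (adjusted p = 0.204 and 0.107) and without the DMSO array 1 or 3 (adjusted p = 0.236 and 0.136). It was also lost without the replicate term (adjusted p = 0.0905, within a range of 0.00848 to 0.153 over all settings). DNAJC16 was at 7.40, 7.20 and 7.42 under DMSO, at 7.47, 7.30 and 7.76 under Ento, at 7.99, 7.68 and 7.94 under AZD and at 8.04, 7.95 and 7.89 under Ento+AZD. All AZD and Ento+AZD arrays lay above the DMSO arrays, as in 4.5% of all rows under AZD and 4.79% under Ento+AZD. It was 0.62 ± 0.136 higher under Ento+AZD (limma, adjusted p = 0.0412). DNAJC16 missed the threshold in 5 of the 6 fits with an array left out, all but the one without the Ento+AZD array 3, with adjusted p up to 0.225. The 1 member called stood beside 0.833% of all rows and the 2 members passed beside 2.39%, and the median change was -0.13 for the members and -0.07 for all rows (-0.26 and -0.09 without the DMSO array 2).

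**Figure D1:**
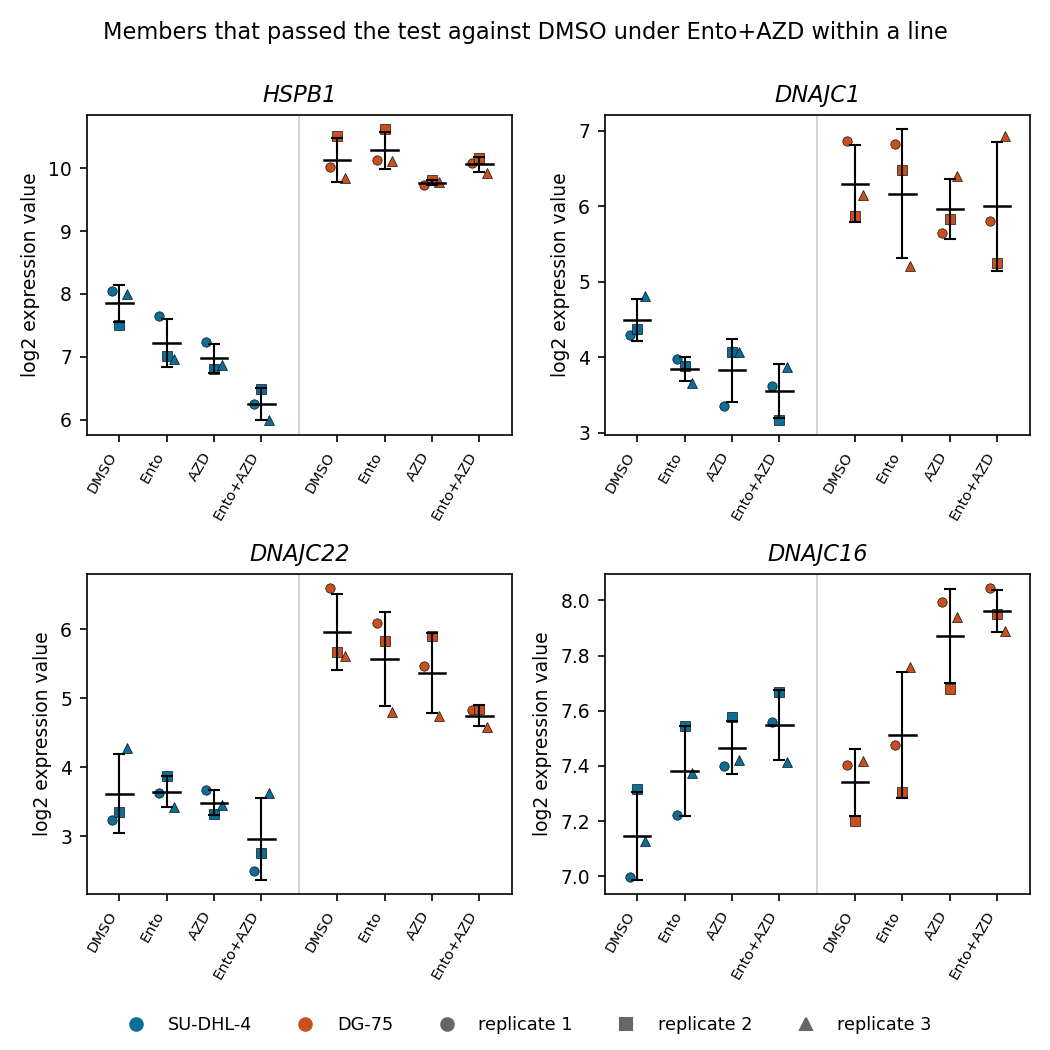
The log2 expression values of HSPB1, DNAJC1, DNAJC22 and DNAJC16 on each array (points, shape by replicate number) are plotted for 4 treatments in each line, with the mean (line) and SD (bars) of the 3 arrays, on axes that do not start at 0. HSPB1 stepped down from DMSO to Ento+AZD in SU-DHL-4 and stayed between 9.73 and 10.6 in DG-75.

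The single agents gave no called member in either line. In SU-DHL-4, Ento called 0 of 74 members beside 0.0508% of all rows, and 10 members had an unadjusted p under 0.05 in limma (13.5%, compared with 8.59% of all rows). The smallest p values for lower members were those of DNAJB3 (-0.51, adjusted p = 0.411 in limma), a J protein best known from testis, and HSPB1 (-0.64, adjusted p = 0.417). For higher members they were those of DNAJB12 (0.39, adjusted p = 0.475 in limma), a J protein of the ER membrane, and HSPA9 (0.36, adjusted p = 0.539), the HSP70 of the mitochondria. AZD in SU-DHL-4 called 0 members beside 0.18% of all rows, with 7 members at an unadjusted p under 0.05 (9.46%, compared with 11.5%). HSPB1 (-0.88, adjusted p = 0.103 in limma) and DNAJC1 (-0.66, adjusted p = 0.276) led the lower members, and HSPA2 (0.41, adjusted p = 0.343) and DNAJC16 (0.32, adjusted p = 0.384) the higher ones.

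In DG-75, Ento called 0 members beside 0.00391% of all rows, and 0 members had an unadjusted p under 0.05 in limma, compared with 2.81% of all rows. The changes of all members under Ento in DG-75 lay between -0.47 for DNAJC28, a mitochondrial J protein, and 0.21 for DNAJC7, a J protein that works with HSP70 and HSP90. DNAJB3 (-0.29) and DNAJB4 (0.20) were next by p in each direction. AZD in DG-75 called 0 members beside 0.18% of all rows, with 14 members at an unadjusted p under 0.05 in limma (18.9%, compared with 13.8%). DNAJC16 was 0.53 higher (adjusted p = 0.115 in limma) and DNAJC4 0.37 higher (adjusted p = 0.215). HSPA14, an HSP70 that works at the ribosome, was 0.44 lower (adjusted p = 0.148) and DNAJC19, a part of the mitochondrial import motor, 0.46 lower (adjusted p = 0.149).

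Set against the single agents, the combination called no member. In SU-DHL-4, Ento+AZD against Ento called 0 members beside 0.0821% of all rows, with 8 members at an unadjusted p under 0.05 (10.8%, compared with 9.67% of all rows). Ento+AZD against AZD called 0 beside 0.0274%, with 6 such members (8.11%, compared with 7.03%). HSPB1 came first by p among the members in both, 0.97 lower than under Ento (adjusted p = 0.0788 in limma) and 0.73 lower than under AZD (adjusted p = 0.453). In DG-75, Ento+AZD against Ento called 0 members beside 0.657% of all rows, with 16 members at an unadjusted p under 0.05 in limma (21.6%, compared with 14.8%). Ento+AZD against AZD called 0 members and 0% of all rows, with 4 such members (5.41%, compared with 4.03%). DNAJC22 was 0.82 lower than under Ento (adjusted p = 0.136 in limma) and 0.62 lower than under AZD, and DNAJC15, a J protein of the mitochondrial inner membrane, was 0.42 lower than under Ento (adjusted p = 0.126).

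The response of HSPB1 to Ento+AZD differed between the lines. In DG-75 it was at 10.02, 10.52 and 9.84 under DMSO and at 10.09, 10.16 and 9.93 under Ento+AZD, so that the groups overlapped, with a change of -0.06 (95% confidence interval -0.40 to 0.27). The response in SU-DHL-4 was 1.54 lower than that in DG-75 (SE 0.247, 95% confidence interval -2.06 to -1.02, adjusted p = 0.0226 in limma). This 1 member was called beside 0.0352% of all rows. The call was lost without the SU-DHL-4 Ento+AZD arrays 1 or 3, the SU-DHL-4 DMSO arrays 1 or 3, the DG-75 Ento+AZD array 1 or the DG-75 DMSO arrays 1 or 3, where adjusted p ran from 0.0723 to 0.149, and without the replicate term (adjusted p = 0.13, the highest of the other settings, which began at 0.00304). For Ento alone the lines called 0 members differently beside 0.00782% of all rows (2 members at an unadjusted p under 0.05 in limma, 2.7%, compared with 4.43%). For AZD alone it was 0 members beside 0% (4 such members, 5.41%, compared with 6.16%).

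At most 2 members of a family passed in any comparison with DMSO within a line, where the share of all rows that passed was 2.36% under Ento+AZD in SU-DHL-4, 2.39% under Ento+AZD in DG-75 and between 0.00391% and 0.293% under the single agents. Under Ento+AZD in SU-DHL-4 the 13 HSP70 genes changed by -0.46 to 0.40 with a median of -0.09, and 0 of them passed. The 28 DNAJC genes ran from -0.94 to 0.40 with a median of -0.08, the 13 DNAJB genes from -0.61 to 0.29 with a median of 0.05, and the 8 HSPB genes from -1.61 to 0.12 with a median of 0.03. Under Ento+AZD in DG-75 the HSP70 genes had a median of -0.01, the DNAJB genes of 0.05, the DNAJC genes of -0.22 and the HSPB genes of -0.11. HSPB1 was thus the lowest of its family in SU-DHL-4 and, at -0.06, within its range in DG-75, where the HSPB genes lay between -0.46 and -0.05.

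**Figure D2:**
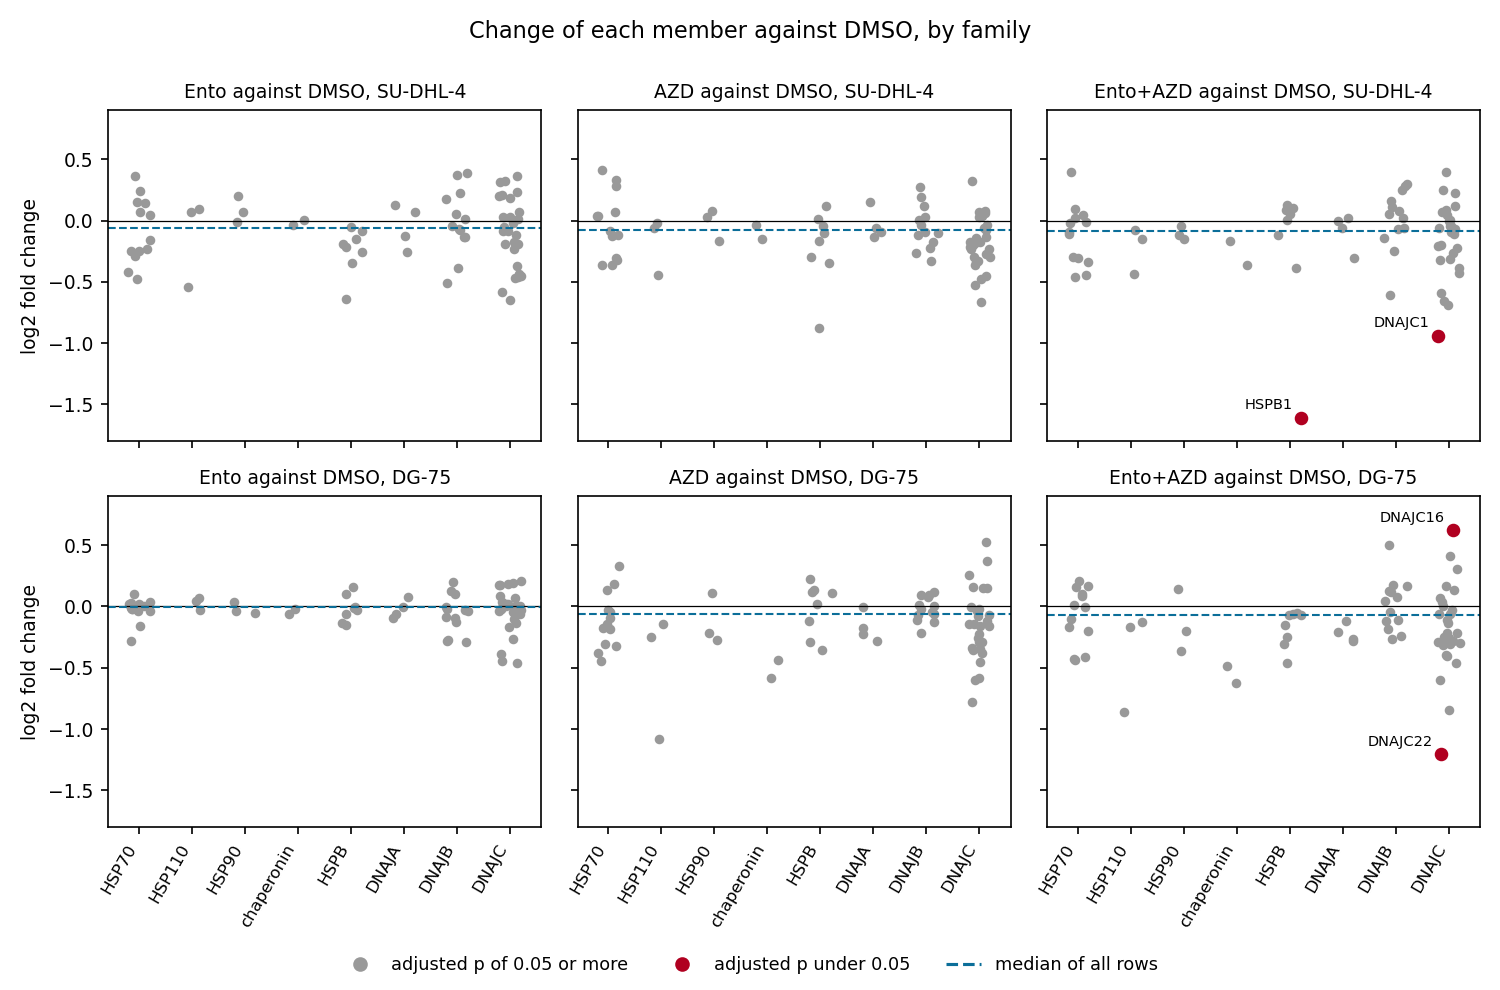
Each point is the log2 fold change of 1 member against DMSO, by family, for the 3 exposures in SU-DHL-4 (top) and DG-75 (bottom), with members that passed in red and the median of all rows as a dashed line. Most grey points lay near the dashed line, the pair of chaperonin genes of DG-75 lay below it under AZD and Ento+AZD, and the 4 red points were HSPB1, DNAJC1, DNAJC22 and DNAJC16 under Ento+AZD.

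Of 14 chaperones that heat induces, 1, HSPB1, passed under Ento+AZD in SU-DHL-4, where 2.36% of all rows did. None passed under Ento+AZD in DG-75, where 2.39% did, nor under the single agents, where few rows passed at all (0.0547% under Ento and 0.207% under AZD for SU-DHL-4, 0.00391% and 0.293% for DG-75). Their median change ran from -0.18 under Ento+AZD in DG-75 to -0.02 under Ento in DG-75. Under Ento+AZD in SU-DHL-4 the inducible HSP70 genes HSPA1A and HSPA1B changed by -0.29 (95% confidence interval -0.74 to 0.15) and -0.44 (-0.79 to -0.09, adjusted p = 0.227 in limma). HSPA8, the HSP70 that cells make at all times, changed by -0.01 (-0.33 to 0.31), and the J proteins DNAJA1 and DNAJB1, which hand it clients, by -0.06 (-0.47 to 0.36) and -0.25 (-0.62 to 0.13). The cytosolic HSP90 genes HSP90AA1 and HSP90AB1 changed by -0.15 (-0.57 to 0.28) and -0.12 (-0.42 to 0.18), and HSPH1, an exchange factor of the HSP110 class, by -0.08 (-0.41 to 0.25). In DG-75 the same genes changed by 0.21 (-0.34 to 0.75) for HSPA1A, 0.16 (-0.41 to 0.72) for HSPA1B, -0.20 (-0.49 to 0.10) for HSPA8, -0.21 (-0.57 to 0.16) for DNAJA1, -0.04 (-0.42 to 0.34) for DNAJB1, -0.36 (-0.73 to 0.01) for HSP90AA1, -0.20 (-0.46 to 0.07) for HSP90AB1 and -0.17 (-0.56 to 0.22) for HSPH1. A doubling lay outside each of these intervals, which are for the mean change. For HSPA1A in DG-75 the pair of arrays numbered 3 differed by more than a doubling, as given below.

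Of 10 mitochondrial chaperones, 8 had values below DMSO in DG-75 under AZD and 8 under Ento+AZD (80%, compared with 60.5% and 61.4% of all rows). None of the 10 passed there, where 0.293% and 2.39% of all rows did. HSPD1, the barrel of the chaperonin, was at 11.27, 11.08 and 11.13 in DG-75 under DMSO, at 10.63, 10.67 and 10.86 under AZD and at 10.59, 10.83 and 10.60 under Ento+AZD. Neither exposed group overlapped with DMSO, but 14.6% of all rows lay below DMSO in this way under AZD and 14% under Ento+AZD. The change was -0.44 under AZD (adjusted p = 0.182 in limma) and -0.48 under Ento+AZD (adjusted p = 0.106). HSPE1, the lid of the chaperonin, changed by -0.58 under AZD (adjusted p = 0.246 in limma) and by -0.63 under Ento+AZD (adjusted p = 0.171). The HSP70 of the same compartment, HSPA9, changed by -0.32 under AZD (adjusted p = 0.336 in limma) and by -0.41 under Ento+AZD (adjusted p = 0.164). In SU-DHL-4 under Ento+AZD the values were -0.37 for HSPD1 (adjusted p = 0.28 in limma), -0.17 for HSPE1 (adjusted p = 0.769) and 0.09 for HSPA9 (adjusted p = 0.848). Over the 10 mitochondrial members the median in DG-75 under AZD was -0.27, beside -0.06 for all rows. Their median under Ento+AZD was -0.36 in DG-75, beside -0.07 for all rows, and -0.08 for SU-DHL-4, beside -0.08.

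Among 13 chaperones of the ER, DNAJC1 passed as lower in SU-DHL-4 and DNAJC16 as higher in DG-75 under Ento+AZD, and the other 11 passed in neither, beside 2.36% and 2.39% of all rows. As given above, DNAJC1 passed in 0 of 6 fits with an array left out and DNAJC16 in 1 of 6. HSPA5, the HSP70 of the ER known as BiP, changed by -0.02 (95% confidence interval -0.33 to 0.30) in SU-DHL-4 and by 0.08 (-0.33 to 0.50) in DG-75. HSP90B1, its HSP90, changed by -0.04 (-0.35 to 0.27) and 0.14 (-0.26 to 0.54). DNAJB9, a J protein that steers misfolded proteins to degradation, was at 6.59, 6.93 and 7.16 in DG-75 under DMSO and at 7.32, 7.60 and 7.27 under Ento+AZD. These groups did not overlap, as for 4.79% of all rows that lay above DMSO, and DNAJB9 was 0.50 higher there (adjusted p = 0.155 in limma). DNAJB9 was 0.25 higher in SU-DHL-4 (adjusted p = 0.55), and DNAJC3, a BiP partner that also restrains a stress kinase, changed by 0.00 and -0.03. The median over the 13 was 0.08 for DG-75 and 0.04 for SU-DHL-4.

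The 5 J proteins of the nucleus and of RNA processing all had values below 0 under Ento+AZD in both lines. So did 36 of the 74 members, while the share of all rows below 0 in both lines was not counted. Taken line by line, 64% of all rows were below 0 for SU-DHL-4 and 61.4% for DG-75. The sign was the same in both lines for 62.2% of all rows and 63.5% of the members. The medians of the 5 were -0.40 for DG-75 and -0.11 for SU-DHL-4, beside -0.07 and -0.08 for all rows. None of the 5 passed within a line, where 2.39% and 2.36% of all rows did. The values of DNAJC9, a histone chaperone, were -0.60 for DG-75 (adjusted p = 0.187 in limma) and -0.39 for SU-DHL-4 (adjusted p = 0.489). Those of DNAJC8, a splicing protein, were -0.30 (adjusted p = 0.342) and -0.59 (adjusted p = 0.133). DNAJC21, which acts in ribosome maturation, was among the members that varied most over the groups in DG-75, with an SD of its group means of 0.43, after HSPA4L with 0.58 and DNAJC22 with 0.50. In SU-DHL-4 the widest were HSPB1 with 0.66, DNAJC1 with 0.40 and DNAJC22 with 0.32. The values of HSPA4L in DG-75, and of DNAJC1 and DNAJC22 in SU-DHL-4, were low, and whether they stood above background is not known.

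Fitted over both lines with 6 arrays against 6, Ento+AZD called 0 members beside 0.856% of all rows, while 10 members passed (13.5%, compared with 8.49% of all rows) and 21 had an unadjusted p under 0.05 in limma (28.4%, compared with 21.1%). Of the 10, 1 was higher (1.35%, compared with 1.46%) and 9 were lower (12.2%, compared with 7.03%). The higher one was DNAJC16. Its SU-DHL-4 values were 6.999, 7.32 and 7.13 under DMSO and 7.56, 7.67 and 7.41 under Ento+AZD, without overlap (4.84% of all rows lay above DMSO in this way). Over both lines DNAJC16 was 0.51 ± 0.0887 higher (adjusted p = 0.000767 in limma). All 6 differences between arrays of the same line and number were above 0. AZD alone called 0 members beside 0.254% of all rows, and DNAJC16 (0.42 ± 0.0887, adjusted p = 0.00856 in limma) was the 1 member that passed, beside 4.66% of all rows, with 15 members at an unadjusted p under 0.05 (20.3%, compared with 18%). Ento alone called 0 beside 0.00782% and passed none, with 6 members at an unadjusted p under 0.05 in limma (8.11%, compared with 6.36%).

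The 9 members that fell in the fit over both lines under Ento+AZD came from several families. DNAJC22, whose mean level was below that of the median row, fell by 0.93 ± 0.196 (adjusted p = 0.00388 in limma). HSPB1 fell by 0.84 ± 0.207 (adjusted p = 0.0129), with 4 of its 6 differences below 0, a mean of -1.61 in SU-DHL-4 and -0.06 (95% confidence interval -0.40 to 0.27) for DG-75, where it did not pass. DNAJC8 fell by 0.45 ± 0.117 and HSPA14 by 0.44 ± 0.107 (adjusted p = 0.0176 and 0.0105). DNAJB3, at values of 3.36 or lower on every array, fell by 0.44 ± 0.106 and HSPB11, which is named for the family but belongs to the transport machinery of cilia, by 0.42 ± 0.0943 (adjusted p = 0.0111 and 0.00602). HSPD1 fell by 0.42 ± 0.102, DNAJC15 by 0.36 ± 0.083 and DNAJA2, a cytosolic partner of HSPA8, by 0.29 ± 0.0894 (adjusted p = 0.0109, 0.00773 and 0.0443). DNAJA2 missed the threshold in 8 of 12 fits with an array left out, all but those without the SU-DHL-4 arrays 1 of both treatments or the DG-75 Ento+AZD array 2 or DMSO array 3, with adjusted p up to 0.122. DNAJC8 missed it without the SU-DHL-4 Ento+AZD array 2 (adjusted p = 0.0608) or the SU-DHL-4 DMSO array 2 (adjusted p = 0.067). With the median of each array subtracted, DNAJC16, DNAJC22, HSPB1 and HSPB11 passed and the other 6 did not, and none of the 10 passed in limma's treat test against a change of 1.2-fold.

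**Figure D3:**
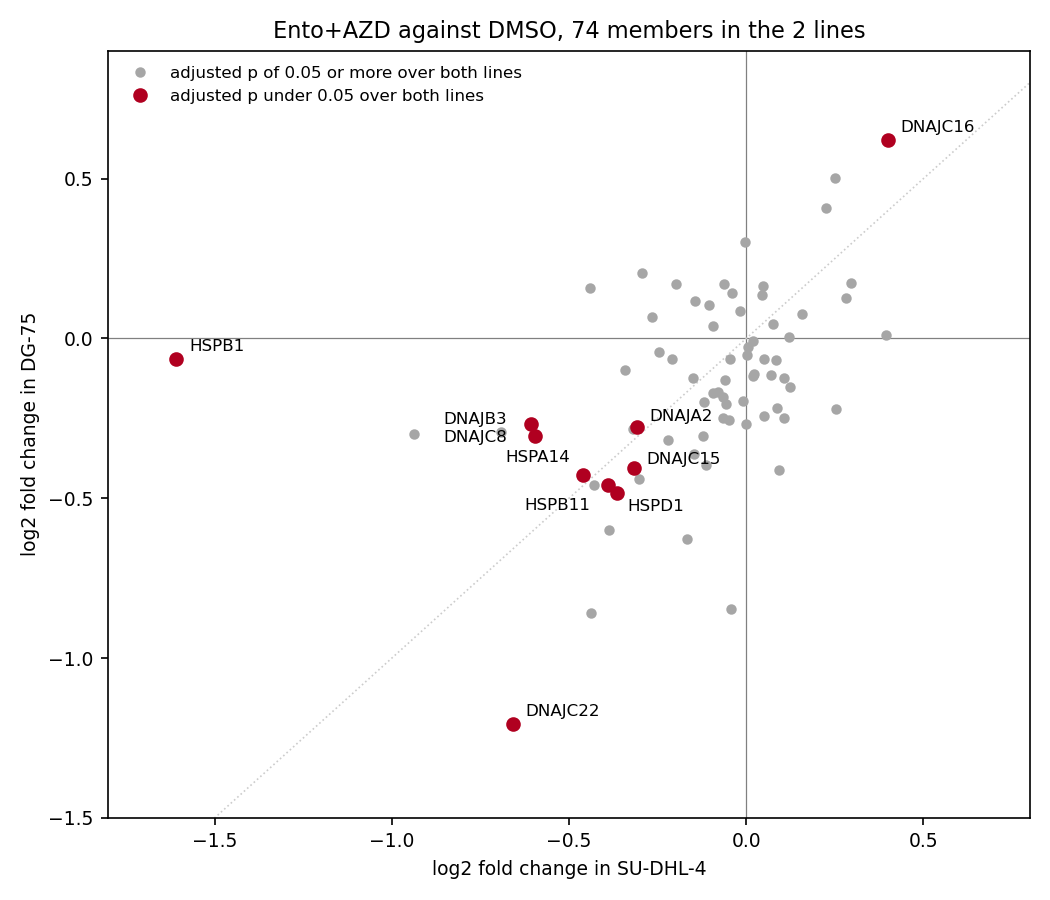
Each point is 1 of the 74 members, with its log2 fold change under Ento+AZD against DMSO in SU-DHL-4 (horizontal) and DG-75 (vertical), and the dotted diagonal marks equal changes. The 10 red members passed over both lines, HSPB1 lay far to the left near 0 on the DG-75 axis, and DNAJC16 was the red member above 0 in both.

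Between the lines, members had the same sign in both under Ento+AZD in 63.5% of cases, compared with 62.2% of all rows, under AZD in 77%, compared with 60.4%, and under Ento in 52.7%, compared with 54.9%. Under AZD 44 members were lower and 13 higher in both lines. These shares are descriptions across genes, which share the arrays and are not independent.

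The arrays numbered 3 of DG-75 stood apart in 5 members under all 4 treatments. HSPA1A was at 8.43 under DMSO, 8.62 under Ento, 8.77 under AZD and 9.47 under Ento+AZD on these arrays, and between 6.90 and 7.56 on the 8 arrays numbered 1 and 2. HSPA1B was 1.21 higher on the arrays numbered 3 than on the others, HSPA2, a relative of HSPA1A best known from testis, 1.59 higher, HSPA6, which is strictly heat-induced, 0.86 higher and DNAJB1 0.70 higher. For each of the 5 the lowest array numbered 3 was above the highest of the others. They were 5 of 74 members (6.76%), compared with 0.579% of all rows without overlap, and by size of the difference HSPA2, HSPA1A and HSPA1B were in places 3, 4 and 8 among 25575 rows. Of the 5, HSPA1A, HSPA1B, HSPA6 and DNAJB1 had a heat shock element core in a RefSeq window and HSPA2 had none, beside 22 of the 64 members with a window. Since probes of HSPA1A may read HSPA1B, these may not be 5 separate readings. The other numbered sets, in DG-75 and in SU-DHL-4, held at most 1 such member each. The labels say nothing of how arrays with the same number were handled, and the cause was not tested. Under Ento+AZD the difference of HSPA1A from DMSO was 1.04 between the DG-75 arrays numbered 3 and -0.11 and -0.31 between those numbered 1 and 2. The changes against DMSO in DG-75 above come from a fit with the replicate number as a term, which takes up a shift shared by the 4 arrays.

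**Figure D4:**
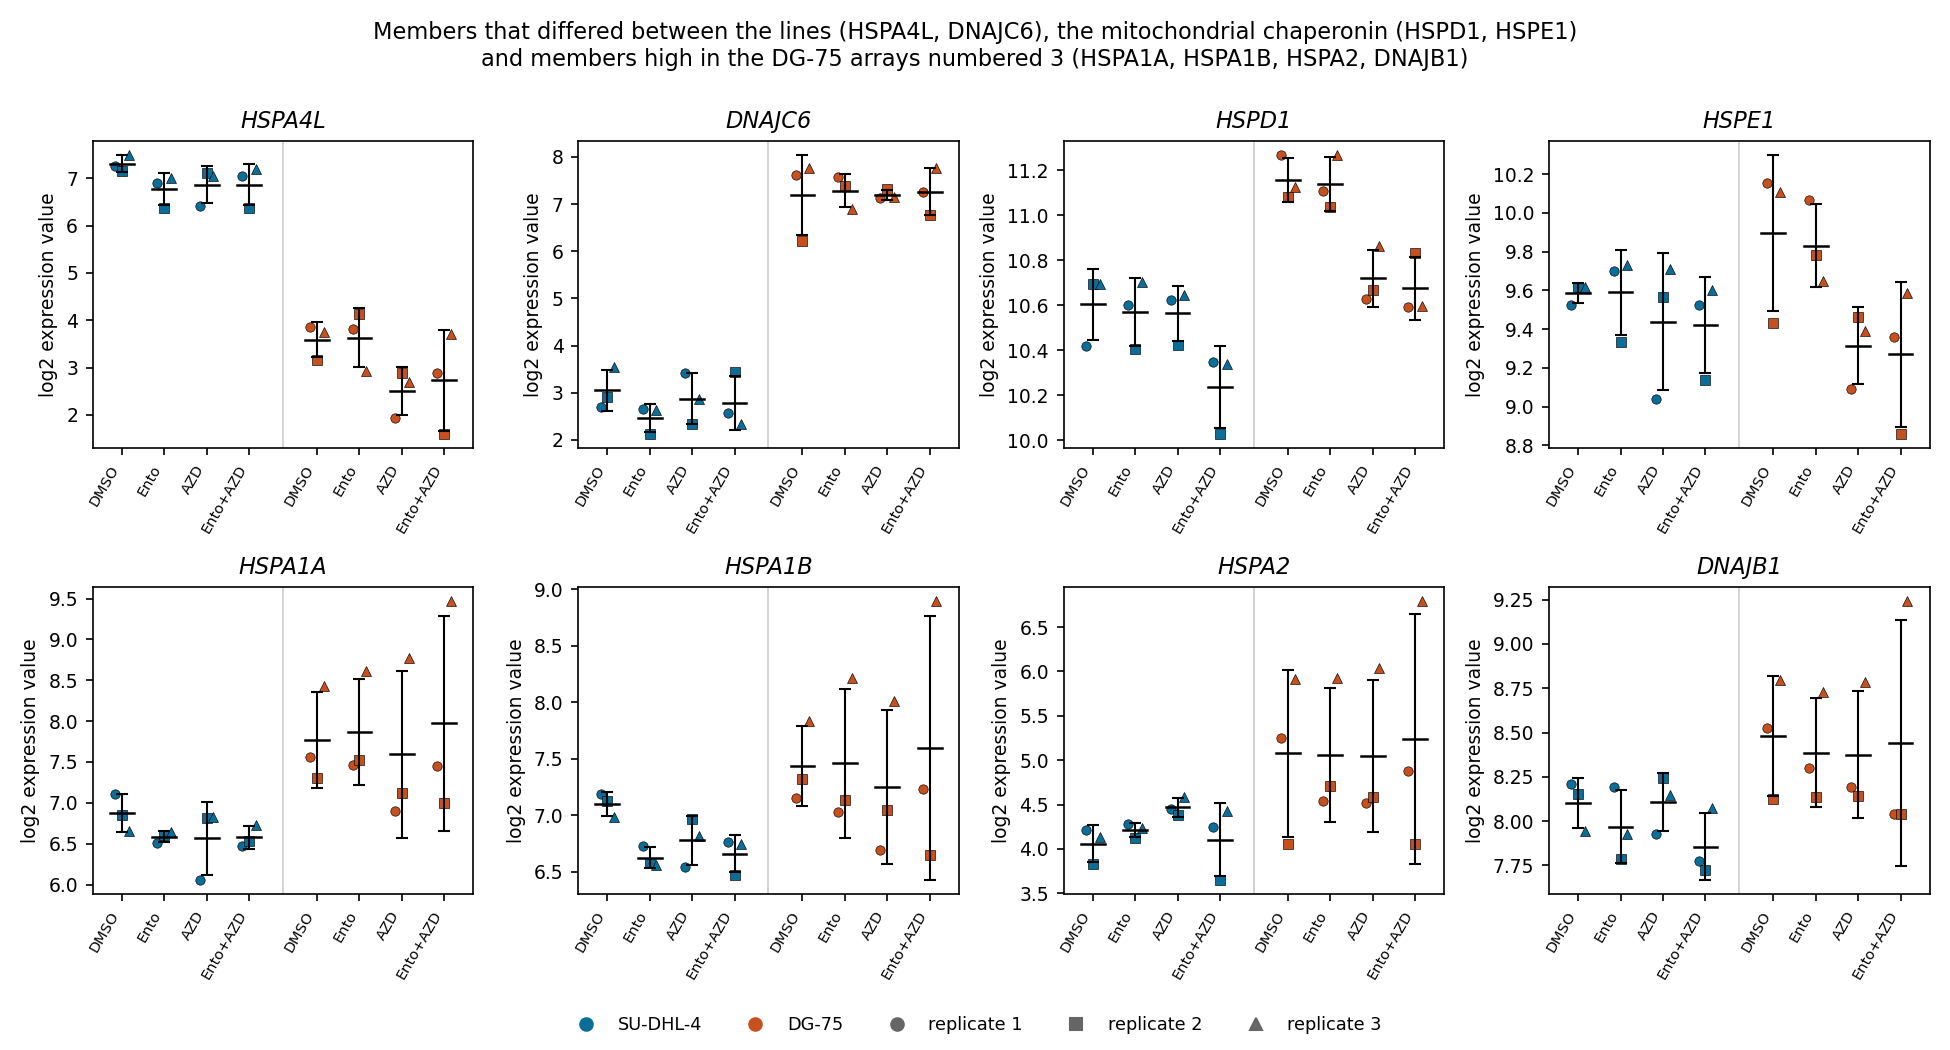
The log2 expression values of 8 members on each array (points, shape by replicate number) are plotted for 4 treatments in each line, with the mean (line) and SD (bars) of 3 arrays, on axes that do not start at 0. HSPA4L was high in SU-DHL-4 and DNAJC6 in DG-75, HSPD1 was lower in DG-75 under AZD and Ento+AZD, and the triangles of DG-75 stood above the other points in HSPA1A, HSPA1B, HSPA2 and DNAJB1.

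Under DMSO the lines differed in 8 called members (10.8%, compared with 7.2% of all rows), with 1 higher in SU-DHL-4 (1.35%, compared with 3.1%) and 7 lower (9.46%, compared with 4.11%). A further 13 passed at a smaller size, so that 21 members passed in all (28.4%, compared with 17.6%), 5 higher (6.76%, compared with 7.78%) and 16 lower (21.6%, compared with 9.84%). Of the 8 called, HSPA4L, DNAJC6, DNAJC1 and DNAJC22 had mean levels below the median row. With such rows left out, 4 members were called. The member higher in SU-DHL-4 was HSPA4L, an exchange factor of the HSP110 class, at 7.26, 7.15 and 7.50 in SU-DHL-4 and 3.86, 3.17 and 3.74 in DG-75. It was 3.72 ± 0.392 higher, 13.1-fold (adjusted p = 1.52e-07 in limma). DNAJC6, the auxilin that strips clathrin coats from vesicles, was at 2.70, 2.91 and 3.54 in SU-DHL-4 and at 7.61, 6.22 and 7.77 in DG-75. It was 4.15 ± 0.361 lower, 17.8-fold (adjusted p = 7.2e-09 in limma). Whether the low values of HSPA4L in DG-75 and of DNAJC6 in SU-DHL-4 stood above background is not known, so both folds describe the deposited values and are no measure of the transcript ratio. Over all 4 treatments HSPA4L lay between 6.37 and 7.50 in SU-DHL-4 and between 1.60 and 4.14 in DG-75, and DNAJC6 between 2.13 and 3.54 and between 6.22 and 7.77.

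HSPB1 and DNAJC22, the members with a call against DMSO above, were lower in SU-DHL-4 under DMSO by 2.27 ± 0.209 (adjusted p = 1.79e-08 in limma) and 2.34 ± 0.35 (adjusted p = 2.43e-05). DNAJC1 was 1.81 ± 0.382 lower (adjusted p = 0.00128 in limma), DNAJC11, a J protein of the mitochondrial outer membrane, 1.52 ± 0.196 lower (adjusted p = 3.05e-06) and DNAJC12, a partner of the aromatic amino acid hydroxylases, 1.42 ± 0.262 lower (adjusted p = 0.000311). DNAJC24, which takes part in making the modified residue diphthamide, was 1.01 ± 0.188 lower (adjusted p = 0.000348 in limma). Whether the low values of DNAJC22 and DNAJC1 in SU-DHL-4 stood above background is not known either. Among those that passed below 2-fold, HSPA9 was 0.91 lower, HSPH1 0.75 higher and DNAJC10, a reductase of disulfide bonds in the ER, 0.91 higher in SU-DHL-4. The median difference of the members was -0.14, beside 0.01 for all rows (-0.31 and -0.01 without the DG-75 DMSO array 2).

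**Figure D5:**
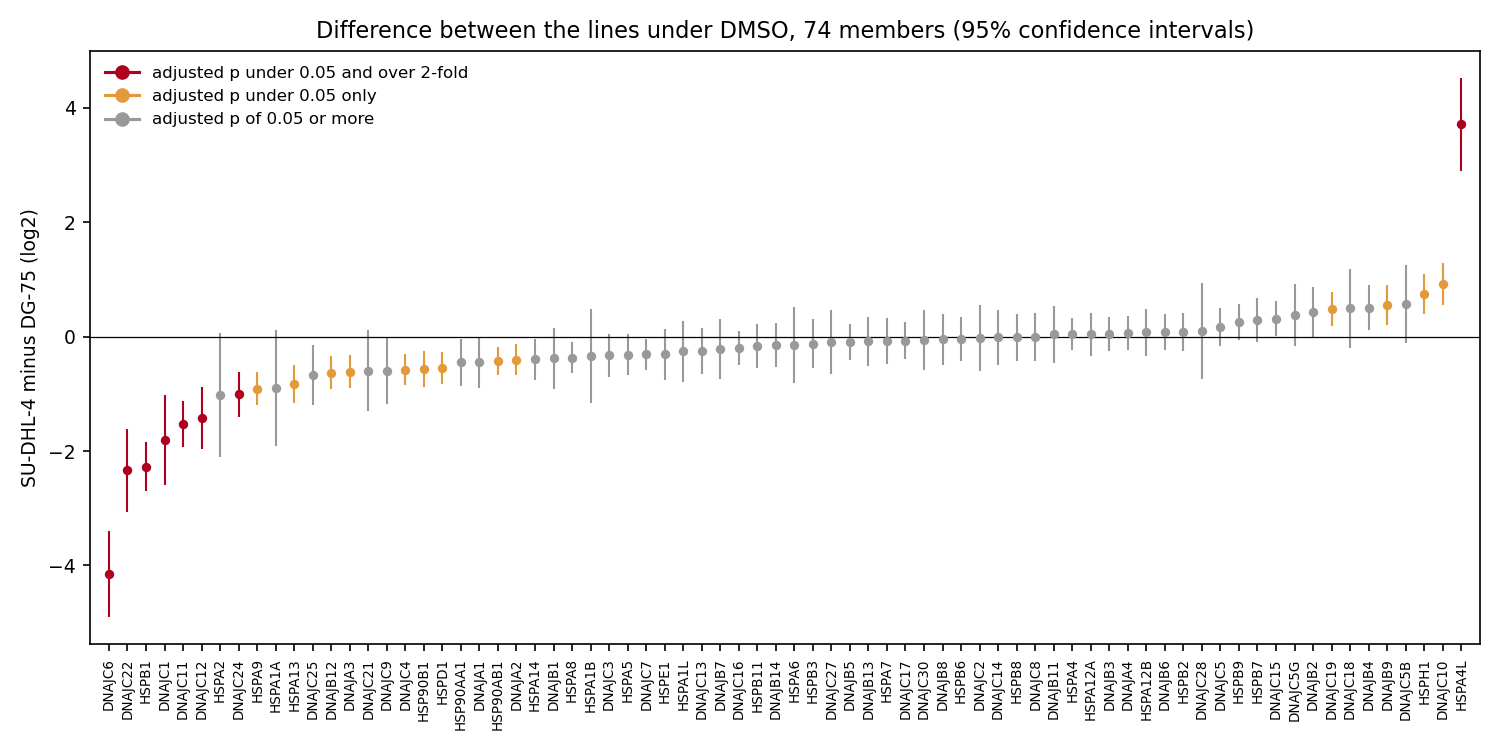
The difference between SU-DHL-4 and DG-75 under DMSO (log2, vertical) is plotted for the 74 members in order of size, with 95% confidence intervals from limma. HSPA4L stood alone at the high end at 3.72 and DNAJC6 at the low end at -4.15, and most intervals between them reached 0.

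Genes that work with the members were counted in 3 lists, beside 2.36% of all rows that passed under Ento+AZD in SU-DHL-4 and 2.39% that did in DG-75. The first list held 27 heat shock factors, cofactors of HSP70 and HSP90 and other chaperones, namely TRAP1, the HSP90 of mitochondria, CRYAB and SERPINH1. Of the 27, none passed under Ento+AZD in SU-DHL-4, while in DG-75 1 did. This was FKBP4, a co-chaperone of HSP90, which was 0.76 lower (adjusted p = 0.0367 in limma). Over both lines 5 of the 27 passed as lower (7.03% of all rows did), among them FKBP4 (-0.56, adjusted p = 0.00523 in limma) and TRAP1 (-0.61, adjusted p = 0.00627). Of 14 subunits of the cytosolic chaperonin and prefoldin, 0 passed within a line and 4 passed as lower over both, beside the same share of all rows, among them TCP1 (-0.44, adjusted p = 0.00331 in limma) and PFDN4 (-0.61, adjusted p = 0.00944). Of 21 genes of the unfolded protein response, XBP1, one of its transcription factors, was called higher under Ento+AZD in SU-DHL-4 (1.25, adjusted p = 0.00811 in limma) and passed as higher in DG-75 (0.67, adjusted p = 0.0258), and over both lines XBP1 was the 1 of the 21 that passed as higher (1.46% of all rows did) and ATF4 the 1 that passed as lower (-0.35, adjusted p = 0.00772). Under DMSO, XBP1 was lower by 2.41 in SU-DHL-4 (adjusted p = 2.89e-08 in limma), and ERN1, EDEM1, CHORDC1 and CCT5 were also called lower, by 1.56, 1.40, 1.04 and 1.03. These were 3 called of the 21 genes of the unfolded protein response, 1 of the 27 factors, cofactors and other chaperones and 1 of the 14 subunits, with 0 called higher, beside 4.11% of all rows called lower and 3.1% called higher. The lists of these genes were drawn up with earlier results of these data known.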

How the data were processed

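Each of 24 Clariom D arrays gave 1 column of log2 values, which the authors deposited after robust multi-array average (RMA) normalization, which corrects background, equalises arrays and summarises probes. RMA and limma are named in the submitters' processing notes. Build, annotation version and background values per row are not given in the sources used here, so low values cannot be split into expressed and not expressed. Every column was matched to 1 sample by name (0 columns unused). In R 4.3.3, limma 3.58.1 (lmFit, eBayes) was fitted per line, over both lines, and over all arrays for differences between the lines' responses, with the replicate number standing in for the batch term of the methods, whose batches the sources used here do not define. The comparison of the lines under DMSO used the 8 groups without that term. P-values were Benjamini-Hochberg adjusted over all 25575 rows, with 0.05 and 2-fold as limits, and cover the spread between these samples only. The number of arrays limits the precision.

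Named members were 18 well-known chaperones, every called member, the best 5 of each direction that passed against DMSO with all differences of 1 sign (the best 2 by p where none passed), up to 8 called per direction between the lines, and the 3 most variable per line. HSPA6, DNAJC8, DNAJA2 and DNAJC10, and the comparison by replicate number, were chosen after their values were seen. The members and all lists were chosen with earlier results of these data known. Scripts were tested on simulated data. Alternatives were other normalizations, filters, prior variances, call rules, replicate terms, fits and arrays left out.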

Additional observations from a re-analysis of the deposited data

Results flagged for a closer look

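HSPB1 stood out because its response to Ento+AZD differed between the lines in the test of that difference. The SU-DHL-4 response minus the DG-75 response gave -1.54 on the log2 scale (SE 0.247, limma adjusted p = 0.0226), where the DG-75 response was -0.06 and the SU-DHL-4 response -1.61. It passed in 5 of 12 fits with 1 array left out (adjusted p up to 0.149) and under 6 of 8 other settings, and was lost without the replicate term (adjusted p = 0.13). All 3 differences between arrays of the same number were below 0 in SU-DHL-4. Under DMSO alone HSPB1 was lower by 2.27 in SU-DHL-4, and the part of that starting difference in the result was not tested.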

How the results depend on the processing

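No change of a member that passed turned its sign under any alternative (527 values stayed past the threshold and 91 did not). Of the medians over all members, 279 values stayed within the spread between replicates and 9 moved further. Among these, that of Ento+AZD in DG-75 went from -0.13 to -0.26 without the DG-75 DMSO array 2, that of AZD in SU-DHL-4 from -0.12 to 0.00 with array medians subtracted, and that of the lines under DMSO from -0.14 to -0.31 without the DG-75 DMSO array 2 and to -0.31 with low rows left out. The other 5 were of Ento+AZD against Ento in SU-DHL-4, between -0.14 and 0.04. In SU-DHL-4 under Ento+AZD, HSPB1 was called in all 6 fits without 1 array and under all 9 other settings, with changes between -1.46 and -1.61 under the latter. With no fold minimum the counts of members became 2 for Ento+AZD in SU-DHL-4, 2 for Ento+AZD in DG-75, 1 for AZD over both lines, 10 for Ento+AZD over both lines and 21 for the lines under DMSO. For Ento+AZD in DG-75 the count fell from 1 to 0 with each array's median subtracted, with rows below the median level left out (DNAJC22 itself was then among the rows left out), and with treat against a 1.2-fold change, and it ranged from 0 to 1 with 1 array left out. For Ento+AZD over both lines it ranged from 0 to 1 with 1 array left out (1 without the SU-DHL-4 Ento+AZD array 3, the SU-DHL-4 DMSO arrays 1 or 2 or the DG-75 DMSO array 2), and for the difference between the lines in the response to Ento+AZD from 0 to 1, with 0 under treat. Under DMSO, 4 members were called between the lines with low rows left out, when 52 members remained, and HSPA4L, DNAJC6, DNAJC1 and DNAJC22 were among the rows left out. The cause of the other changes was not tested. In the fit with no replicate block the count was 0 for Ento+AZD in DG-75 and 0 for the difference in response to Ento+AZD. Whether the numbers pair the samples was checked through deviations from the group means: arrays of 1 number correlated at -0.11 to 0.39 (median 0.15) in SU-DHL-4, where arrays of different numbers did so at -0.29 to 0.11 (median -0.07), and at -0.35 to 0.34 (median 0.04) in DG-75, where the others did so at -0.41 to 0.36 (median -0.01). Not every pair of 1 number was above 0.1, and the labels do not say what a number marks, so pairing was not established. Signal over background could not be judged, since no background value per row was used.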
